A study of Mus musculus with 2 samples.

Results

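The genes described here encode 5 dual-specificity phosphatases (Dusp1, Dusp2, Dusp4, Dusp5 and Dusp6), 3 Sprouty proteins (Spry1, Spry2 and Spry4) and 2 Sprouty-related proteins with an EVH domain (Spred1 and Spred2). They were chosen by symbol, as all probe sets annotated to one of these genes alone, which gave 10 of the 18193 genes named on the array, through 25 probe sets. The study compared a pair of mouse cell lines, both labelled endothelial, with 1 array each: MS-1, derived from pancreatic small vessels, and SVEC4-10, derived from an axillary lymph node. The large T antigen of simian virus 40 was used to immortalise both, and they carry no further allele or agent in the labels. MS-1 was grown with 5% fetal calf serum and SVEC4-10 with 10%, both in DMEM, for 3 to 5 days to confluence, and both were detached from the flask before lysis. Serum and line cannot be told apart, there is no replicate, and no p-value was computed.

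The mitogen-activated protein kinases ERK, JNK and p38 are switched on by phosphorylation of a threonine and a tyrosine in their activation loop, and the dual-specificity phosphatases of this family remove both phosphates. Dusp1, Dusp2, Dusp4 and Dusp5 encode nuclear enzymes made rapidly after a stimulus, whereas Dusp6 encodes a cytoplasmic enzyme selective for ERK. Sprouty and SPRED proteins act further upstream, where they hold back the passage of the signal from receptor tyrosine kinases through Ras and Raf to ERK. Many of these genes are themselves transcribed in response to ERK signalling, so they form negative feedback loops, and in endothelium they limit responses to growth factors such as vascular endothelial and fibroblast growth factors.

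Promoter sequences are shown for members whose signal lay at least 2-fold apart between the arrays and for which the RefSeq table of build GRCm38.p6 held a promoter. That table held a promoter for 8 of the 10 genes, all but Dusp4 and Spry4. Each line gives the 250 bases before the annotated start, 5′ to 3′ on the strand of the gene. Capitals mark matches, on either strand, to 8 motifs: the cyclic AMP response element TGACGTCA, its 6-base part TGACGT, the AP-1 motif TGANTCA, the ETS motif CCGGAAGT, the EGR motif GCGGGGGCG, the E-box CACGTG, the CArG box of serum response factor, and TATAAA. The first 3 of the genes shown were higher in MS-1 and the last 2 in SVEC4-10.
Dusp1, chr17:26508473-26508722, minus strand: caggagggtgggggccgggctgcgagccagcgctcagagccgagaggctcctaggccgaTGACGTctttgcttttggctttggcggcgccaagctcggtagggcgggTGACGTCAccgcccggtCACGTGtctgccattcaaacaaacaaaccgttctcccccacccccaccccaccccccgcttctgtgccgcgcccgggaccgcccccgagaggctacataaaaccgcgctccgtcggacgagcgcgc
Dusp2, chr2:127335909-127336158, plus strand: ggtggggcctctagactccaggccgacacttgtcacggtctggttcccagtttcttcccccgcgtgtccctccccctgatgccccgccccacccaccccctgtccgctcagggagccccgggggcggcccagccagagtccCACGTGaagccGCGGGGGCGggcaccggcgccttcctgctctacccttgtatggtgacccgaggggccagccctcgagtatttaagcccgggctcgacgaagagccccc
Dusp5, chr19:53528895-53529144, plus strand: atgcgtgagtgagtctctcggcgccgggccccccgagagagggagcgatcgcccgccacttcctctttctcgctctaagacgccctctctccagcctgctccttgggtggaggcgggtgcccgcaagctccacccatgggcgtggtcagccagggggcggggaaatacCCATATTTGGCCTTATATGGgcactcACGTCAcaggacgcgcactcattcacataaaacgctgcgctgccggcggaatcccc
Dusp6, chr10:99262981-99263230, plus strand: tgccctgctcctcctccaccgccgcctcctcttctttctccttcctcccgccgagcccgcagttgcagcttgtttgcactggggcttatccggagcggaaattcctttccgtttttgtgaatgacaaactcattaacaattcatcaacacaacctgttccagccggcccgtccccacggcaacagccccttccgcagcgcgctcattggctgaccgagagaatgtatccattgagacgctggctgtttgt
Spry2, chr14:105896820-105897069, minus strand: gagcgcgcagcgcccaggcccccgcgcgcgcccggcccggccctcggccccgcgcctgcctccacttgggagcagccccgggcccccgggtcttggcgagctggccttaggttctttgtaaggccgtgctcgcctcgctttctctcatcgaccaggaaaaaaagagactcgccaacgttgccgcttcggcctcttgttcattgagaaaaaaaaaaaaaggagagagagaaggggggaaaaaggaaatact

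The Dusp1 promoter held the full cyclic AMP response element, 143 to 136 bases before the start, a further 6-base part of it at 191 to 186 bases and an E-box at 126 to 121 bases. The full element overlaps its own 6-base part on both strands. Of 32851 mouse promoter windows of the same length, 1.55% held the full element, 6.47% the 6-base part and 6.02% the E-box. The Dusp2 promoter held an E-box at 109 to 104 bases and an EGR motif at 98 to 90 bases, a motif found in 2.57% of all windows. The Dusp5 promoter held a pair of CArG boxes end to end, CCATATTTGG at 82 to 73 bases and CCTTATATGG at 72 to 63 bases, and the 6-base part of the cyclic AMP response element at 56 to 51 bases. A CArG box was present in 1.47% of all windows. None of the 8 motifs matched in the windows of Dusp6, Spry2, Spry1 and Spred1, and Spred2 held the 6-base part at 52 to 47 bases. No match to the AP-1, ETS or TATAAA letters was found in the 8 windows, against 6.75%, 2.88% and 12.4% of all windows. At such shares, finding none in 8 windows does not set these genes apart. The bases G and C made up 56% to 70.8% of the 8 windows, against a median of 52.4% for all windows. The shares of all windows are therefore not matched for base content. A match is a description of letters and not evidence of binding.

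Each array gave a signal, a linear intensity, for 45101 probe sets, with a median of 18.7 in MS-1 and 18.4 in SVEC4-10. Background, the 95th percentile of 129 probe sets of odorant, pheromone and taste receptors and hair proteins, was 16.3 and 17.6. A gene counted as measured if 1 probe set or more exceeded background on at least 1 array, which held for 12583 genes, and every log2 ratio sets SVEC4-10 over MS-1. The spread of the log2 ratio between probe sets of one gene was 0.60 (SD, 6110 genes). It was 0.76 for the dimmest 2037 of these genes, 0.57 for the middle 2037 and 0.42 for the brightest 2036, so 0.60 understates the error of dim genes. This error holds no variation between cultures. All 12 endothelial markers were at least 4-fold lower in SVEC4-10, where 9 of them, Pecam1 and Cdh5 included, were at background, and their summed signal was 33989 in MS-1 and 215 in SVEC4-10. All 10 measured mesenchymal markers of 12 were at least 2-fold higher in SVEC4-10 (summed signal 132 and 34633), and so were all 6 mesothelial markers (59.2 and 17146). Of 8 epithelial markers, 6 were measured, with 2 at least 2-fold higher in each line (summed signal 409 and 379). The label of SVEC4-10 as endothelial is therefore not borne out by the 12 endothelial markers. Flt4 and Flt1, receptors for vascular endothelial growth factors outside that list, are named after their values were seen. They were above background on both arrays, with 938 and 438 for Flt4 and 115 and 65.3 for Flt1. What part this difference in cell type markers had in the results that follow was not tested. In bulk RNA, fewer expressing cells and less RNA per cell cannot be told apart.

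The phosphatase genes carried the larger differences and the Sprouty and SPRED genes the smaller ones. Of the 10 genes, 4 were at least 2-fold higher in MS-1 (Dusp1, Dusp2, Dusp4 and Dusp5), 2 in SVEC4-10 (Dusp6 and Spry2) and 4 on neither. Among all measured genes, 12.1% were at least 2-fold higher in MS-1 and 15.3% in SVEC4-10. For the arrays scaled as deposited, the same shares stand beside the counts of every other list below. At 4-fold, 2 members remained higher in MS-1, where the share of all genes was 4.3%, and 0 in SVEC4-10, where it was 5.78%. The median log2 ratio of the 10 genes was -0.57, beside 0.018 for all measured genes. With the arrays scaled to the spiked-in poly-A transcripts, which lowered the median of all genes to -0.52, the counts were 5 in MS-1 and 1 in SVEC4-10, and the median of the members was -1.11. Under the same scaling the share of all calls that were higher in SVEC4-10 went from 55.9% to 24.1%. Of the 12583 measured genes, 3342 were then at least 2-fold higher in MS-1 and 1062 in SVEC4-10. Those counts, not the shares above, stand beside every poly-A count of the lists below.

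**Figure D1:**
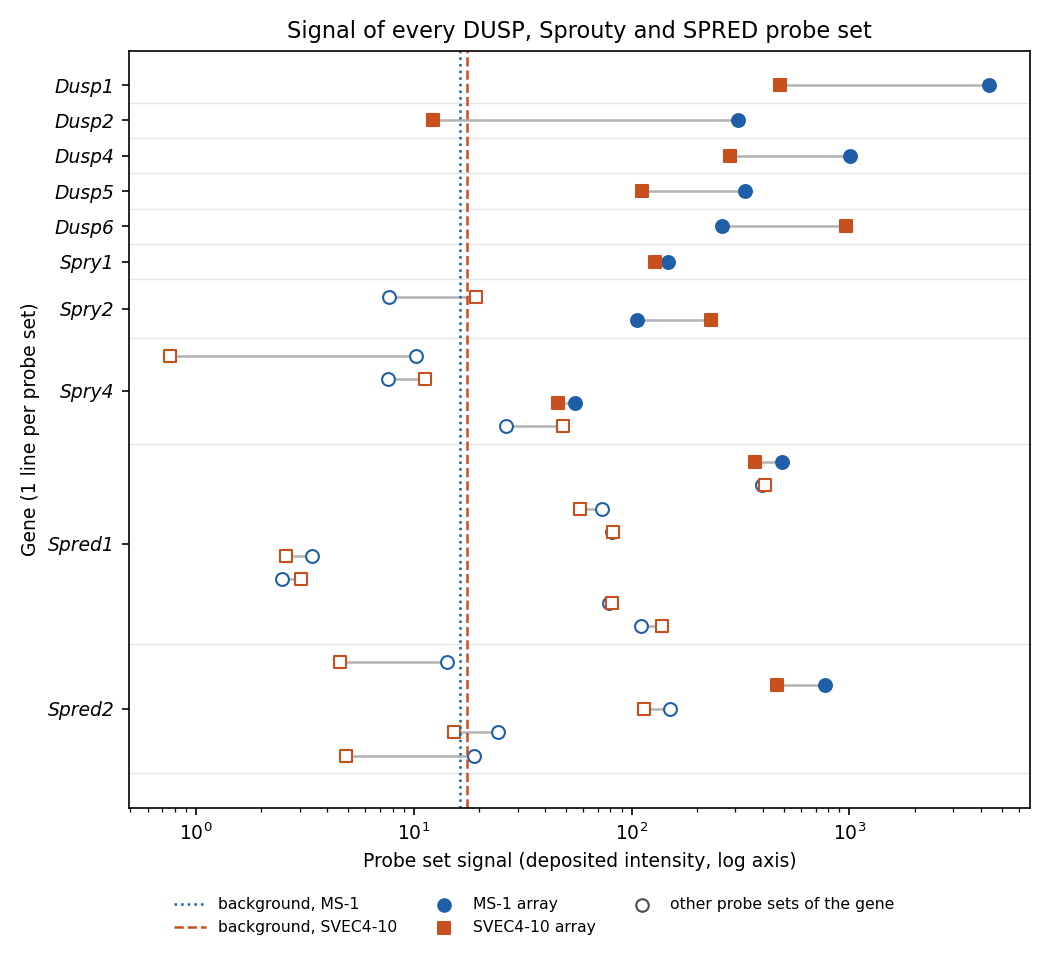
Deposited signal (log axis) of all 25 probe sets of the 10 genes in MS-1 (circles) and the SVEC4-10 array (squares), joined by a line, with filled symbols for the probe set that represents the gene and vertical lines for the background of each array. The MS-1 symbol lies to the right for Dusp1, Dusp2, Dusp4 and Dusp5 and to the left for Dusp6, while those of the Spred1 probe sets lie close together.

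Dusp1, an early response phosphatase that acts on p38, JNK and ERK, had a signal of 4368 in MS-1 and 482 in SVEC4-10. Its signal was thus 9.06-fold higher in MS-1, a log2 ratio of -3.18. The error of 0.60 comes from genes with several probe sets, which Dusp1 lacks, and holds no variation between cultures. Dusp2, an inducible nuclear phosphatase best known from activated lymphocytes, had a signal of 307 in MS-1 and 12.3 in SVEC4-10, where it was below background. The difference was at least 17.4-fold. Since Dusp2 is known from leukocytes, their markers are given beside it: 4 of 9 were measured, with a summed signal of 3936 in MS-1 and 73.4 in SVEC4-10, and 3 of the 4 were at least 2-fold higher in MS-1. Cd68, a lysosomal protein, had 3645 and 45.9, Lcp1, an actin-bundling protein, had 213 and 5.63 (at least 12.1-fold), and Coro1a, which binds actin, had 50.7 and 6.17 (at least 2.88-fold, but a further probe set gave a log2 ratio of -0.37). Laptm5, with 26.1 and 15.7, was close to background. The defining leukocyte gene Ptprc and the T cell gene Cd3e were not above background on either array.

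Dusp4, a nuclear phosphatase of ERK and JNK, had signals of 1005 in MS-1 and 283 in SVEC4-10, a 3.55-fold difference and a log2 ratio of -1.83. Dusp5, a nuclear phosphatase that is selective for ERK and anchors it there, gave 331 in MS-1 and 112 in SVEC4-10, a 2.96-fold difference and a log2 ratio of -1.57. All 4 nuclear enzymes were therefore at least 2-fold higher in MS-1, with a median log2 ratio of -2.50. The direction was the same under the 3 alternative scalings; the alternatives of probe set could not change these genes, which have 1 probe set each.

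Dusp6, the cytoplasmic ERK phosphatase and a common readout of fibroblast growth factor signalling, ran the other way. Its signal was 261 in MS-1 and 969 in SVEC4-10, a 3.71-fold difference and a log2 ratio of 1.89. The log2 ratio of Dusp6 exceeded those of Dusp1, Dusp4 and Dusp5 by 5.07, 3.72 and 3.46, and that of Dusp2 by at least 6.01. The error between probe sets is 0.85 for a difference of 2 such ratios, and it too holds no variation between cultures. These differences are within the same array pair, so a common scaling factor cancels from them where both arrays were above background. Each of the 5 phosphatase members was read by 1 probe set, so agreement between probe sets cannot be checked for them.

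None of the 5 other phosphatases of this family was at least 2-fold higher in SVEC4-10. Among all measured genes 15.3% were, and 12.1% were at least 2-fold higher in MS-1. At a share of 15.3%, a count of 0 of 5 does not set these genes apart. Of Dusp7, Dusp8, Dusp9, Dusp10 and Dusp16, 3 were at least 2-fold higher in MS-1 and 0 in SVEC4-10, with 2 on neither and a median log2 ratio of -1.76. With the mean over probe sets the MS-1 count was 2 and the median -0.93, and with the probe set of smallest ratio they were 1 and -0.29. Dusp7, which encodes a cytoplasmic ERK phosphatase like Dusp6, had signals of 270.1 and 73.2, a log2 ratio of -1.88, and its 3 probe sets ranged from -2.74 to -1.88. Dusp9, the remaining member of the cytoplasmic group, had a signal of 28.0 in MS-1 and was below background on the other, which gives a log2 ratio of at most -0.67. Among the phosphatases that prefer JNK and p38, Dusp8 had signals of 149 and 21.4 (log2 ratio -2.80), Dusp10 190 and 56.2 (-1.76) and Dusp16 572 and 420 (-0.45). Further probe sets gave -0.29 for Dusp8 and -0.11 for Dusp10, so these ratios depend on the probe set. Across the 10 phosphatases, members and others, 7 were at least 2-fold higher in MS-1, 1 in SVEC4-10 and 2 on neither, and the MS-1 count was 6 with the mean over probe sets and 5 with the probe set of smallest ratio.

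**Figure D2:**
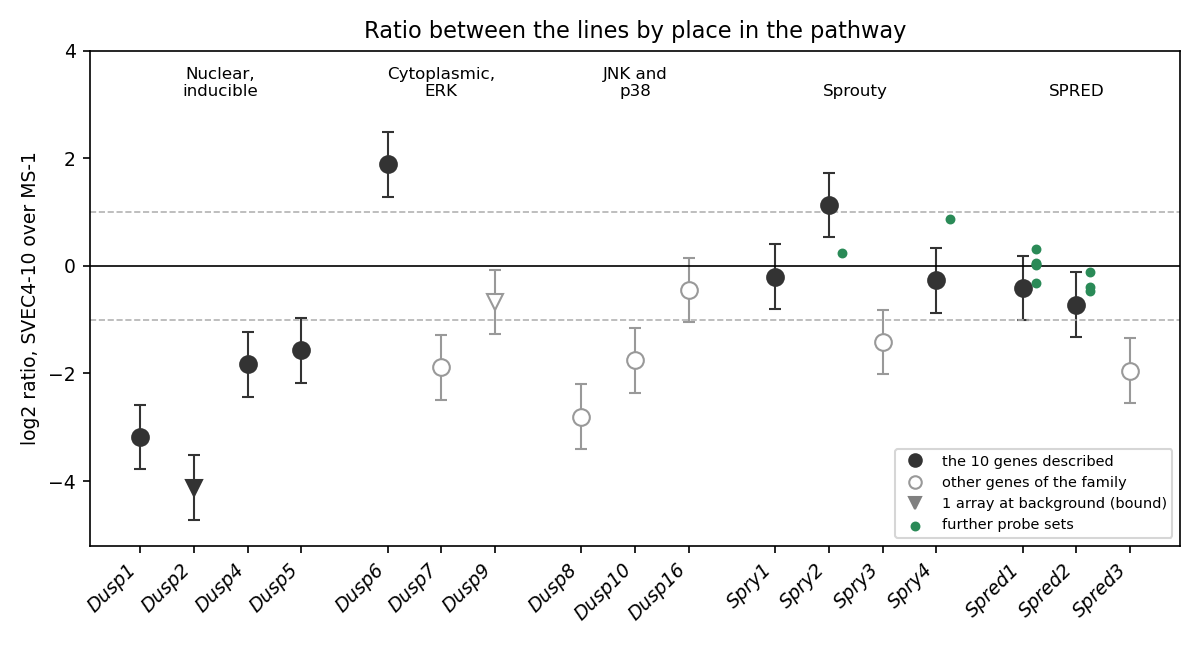
Log2 ratio of SVEC4-10 over MS-1 for the representative probe set of each gene, grouped by role, with bars of 1 SD between probe sets (0.60), small dots for further measured probe sets of the 10 genes, and dashed lines at 2-fold. Triangles mark bounds, where 1 array was at background. Dusp6 at 1.89 stands above the 4 nuclear phosphatases, of which Dusp5 is highest at -1.57 and Dusp2 lowest with a bound of -4.12. The Sprouty and SPRED members lie closer to 0.

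Spry2, an inhibitor of receptor tyrosine kinase signalling that is phosphorylated on a conserved tyrosine, was the Sprouty member with the largest difference. The signal of its brighter probe set was 106 in MS-1 and 232 in SVEC4-10, a 2.19-fold difference and a log2 ratio of 1.13. Its second probe set had 7.72 in MS-1, below background, and 19.3 in SVEC4-10, close to background, so it gave the same direction with a lower bound of 0.24. The Spry2 ratio fell under 2-fold with the mean over probe sets (0.69) and with scaling to the poly-A controls (0.59).

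Spry1, which also restrains receptor tyrosine kinases, had signals of 147 and 128 at its 1 probe set. Its log2 ratio of -0.20 is smaller than the error. Spry4, a Sprouty that blocks activation of Ras and Raf, had 4 probe sets, of which 2 were below background on both arrays. The other two disagreed in sign: 55.1 in MS-1 against 45.8 in SVEC4-10 gave a log2 ratio of -0.27, and 26.6 against 48.5 gave 0.87. No direction can be given for Spry4.

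Spred1, which brings the Ras inhibitor neurofibromin to the membrane, had 6 measured probe sets among 8. The brightest had signals of 491 in MS-1 and 369 in SVEC4-10, a log2 ratio of -0.41, and the ratios of all 6 ran from -0.41 to 0.32, on both sides of 0. Spred2, a related inhibitor of Ras and Raf, had 4 measured probe sets among 5. Its brightest had signals of 770 and 467, a log2 ratio of -0.72, and the second brightest had 149.96 and 114, a log2 ratio of -0.40. The remaining 2 were close to background in MS-1 (24.4 and 19.0) and below it in SVEC4-10, so their ratios, -0.47 and -0.11, are bounds set mostly by the background. Spred2 was within 2-fold as deposited and passed it, at -1.26, with scaling to the poly-A controls.

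The remaining genes of these families were higher in MS-1. Spry3 had signals of 95.8 and 36.0, a log2 ratio of -1.41. Spred3 had signals of 142 and 36.7, a log2 ratio of -1.95. Each was read by 1 probe set. Among the 7 Sprouty and SPRED genes, members and others, 2 were at least 2-fold higher in MS-1, 1 in SVEC4-10 and 4 on neither.

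Upstream of the members, the lines differed in their receptor tyrosine kinases. Of 21 measured receptors, 8 were at least 2-fold higher in SVEC4-10, 5 in MS-1 and 8 on neither (8 and 8 with scaling to the poly-A controls), with a median log2 ratio of 0.26 that turned to -0.28 under that scaling. Tie1, an endothelial receptor, and Kdr, which encodes a receptor for vascular endothelial growth factors, were at least 69.1-fold and 57.9-fold higher in MS-1. Kit, the stem cell factor receptor, was 34.8-fold higher there, with signals of 932 and 26.8. Axl, the receptor for GAS6, had a signal of 2083 in SVEC4-10 and was at least 128-fold higher there.

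The shared cascade from adaptor proteins to ERK differed less. Of 24 listed genes, 17 were measured, and the others were not analysed here. Of the 17, 2 were at least 2-fold higher in SVEC4-10, 1 in MS-1 and 14 on neither (2, 3 and 12 with scaling to the poly-A controls), with a median log2 ratio of -0.066. Gab1, a docking protein for receptor tyrosine kinases, had signals of 57.7 and 310, a log2 ratio of 2.42. Mras, a Ras-like GTPase, had a log2 ratio of 1.89. Rps6ka3, a kinase activated by ERK, had -1.34. Map2k2, an ERK kinase, had 0.94 by its representative probe set and -1.13 by the second, so no direction can be given for it. Among 7 measured Ras GTPase-activating proteins, 1 was higher in SVEC4-10, 2 in MS-1 and 4 on neither (0, 3 and 4 with scaling to the poly-A controls). Nf1, which encodes the SPRED partner neurofibromin, had signals of 39.7 and 51.3 and a log2 ratio of 0.37. Rasa4 was at least 11.2-fold higher in MS-1 by 1 probe set, with -0.90 at the second, Rasa3 had a log2 ratio of -1.49 and Rasa1 one of 1.02. Rasa2 (0.95), Rasal2 (0.14) and Dab2ip (-0.57) were within 2-fold.

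The JNK and p38 cascade ends in kinases that include substrates of Dusp1, Dusp8, Dusp10 and Dusp16. Of its 13 measured genes, 4 were at least 2-fold higher in MS-1, 1 in SVEC4-10 and 8 on neither. The 13 genes had a median log2 ratio of -0.33. With scaling to the poly-A controls the counts were 6 in MS-1 and 1 in SVEC4-10, with a median of -0.87. Without probe sets of suffix _x_, _s_ or _a_, the counts were 2 in MS-1 and 1 in SVEC4-10. Mapk12 and Mapk11, which encode p38 kinases, had log2 ratios of -2.91 and -1.81, although the second probe set of Mapk12 gave -0.44. Map2k6, a kinase that activates p38, was at least 6.27-fold higher in MS-1. Map3k5, a stress-activated kinase at the top of the cascade, was at least 17.1-fold higher in SVEC4-10, with 1.25 at its second probe set.

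Genes that commonly respond to ERK differed in both directions. Of 20 measured genes, 7 were at least 2-fold higher in MS-1, 5 in SVEC4-10 and 8 on neither (13, 5 and 2 with scaling to the poly-A controls), with a median log2 ratio of -0.61. Ccnd1, which encodes cyclin D, had signals of 6960 in MS-1 and 167 in SVEC4-10, a 41.7-fold difference that all 3 of its probe sets shared in direction. Fosl1, a Fos family factor that depends on sustained ERK activity, had signals of 1012 and 50.4, a 20.1-fold difference. Ereg, the growth factor epiregulin, was 5.60-fold higher in MS-1. Egr1, an early response factor, ran the other way with signals of 146 and 1162, a 7.96-fold difference. Other early response genes of this list, named after their values were seen, lay on both sides: Fos (1.98) and Junb (2.22) were higher in SVEC4-10, Myc (-1.22) was higher in MS-1, and Ier3 (-0.996), Maff (-0.69), Ier2 (-0.53), Fosl2 (-0.48) and Klf10 (-0.46) were within 2-fold with the lower signal in SVEC4-10.

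**Figure D3:**
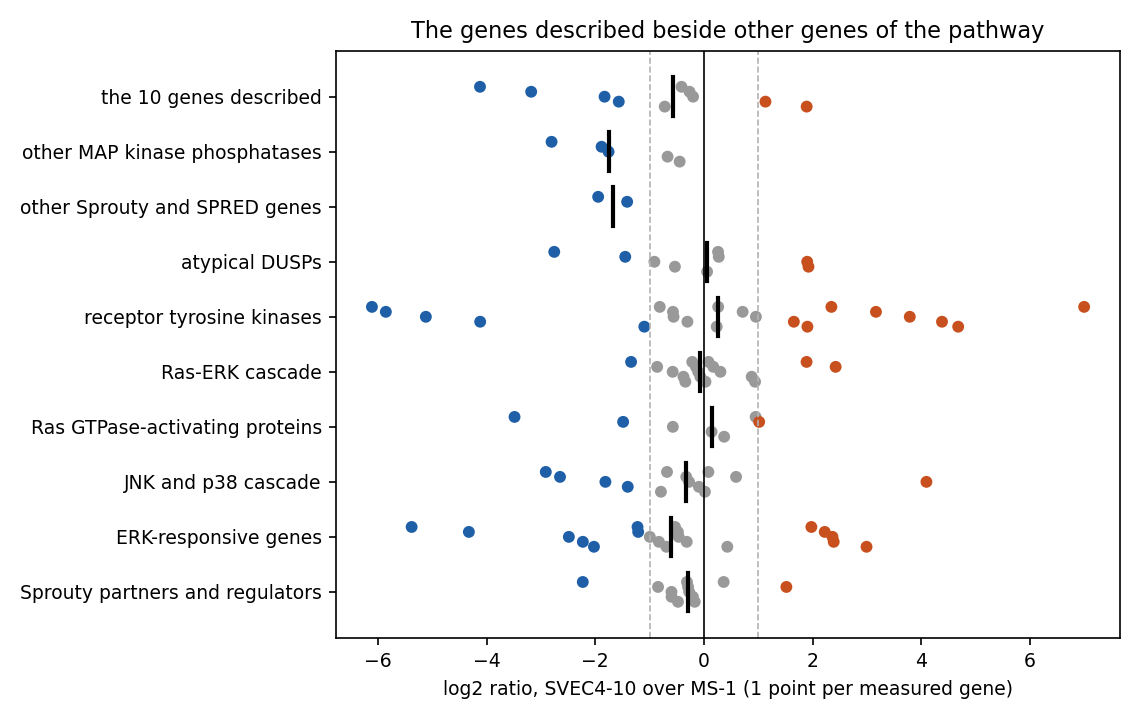
Log2 ratio of SVEC4-10 over MS-1 for each measured gene of the 10 genes described and of 9 other lists of the pathway, with a black bar at the median of each list and dashed lines at 2-fold. Points at least 2-fold apart are coloured by the array with the higher signal, and the vertical offset of points has no meaning. The receptor tyrosine kinases spread from the bound of -6.11 for Tie1 to the bound for Axl at far right, whereas 14 of 17 genes of the Ras-ERK cascade lie within 2-fold.

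The ratios of the members were computed again under 9 alternatives of scaling, background and probe set choice. For Dusp1, Dusp4, Dusp5, Dusp6 and Spry1, read by 1 probe set above background on both arrays, 6 of the 9 gave the identical value by construction and only the 3 scalings could move it. Scaling to the poly-A controls lowers every ratio by the same 0.54. Under the scalings the ratio of Dusp6 lay between 1.35 and 1.90 and that of Dusp1 between -3.72 and -3.14. The ratio of Dusp2 was -3.12 with background doubled, and those of Spry2 and Spred2 were bounds of 0.24 and -0.11 by the probe set of smallest ratio.

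**Figure D4:**
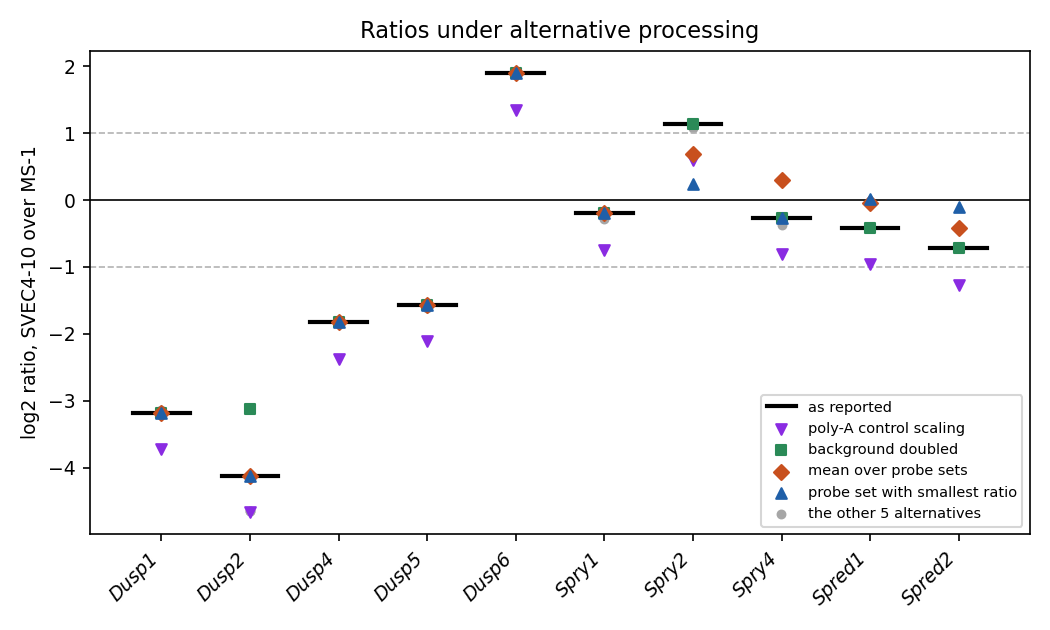
Log2 ratio of each of the 10 genes as reported (black bar) and under 9 alternatives (symbols), with dashed lines at 2-fold. Dusp1, Dusp2, Dusp4, Dusp5, Dusp6 and Spry1 have 1 probe set each, so the alternatives of probe set return their reported value. Among the genes with several probe sets, Spry2 and Spred2 cross the 2-fold lines, and Spry4 and Spred1 lie on both sides of 0.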

How the data were processed

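Per the labels' protocols, biotinylated cRNA from 6 µg RNA of 1 culture per line, at passage 5 or below, was put on Affymetrix arrays. The authors deposited a linear intensity for each probe set. How probes were summarised is not given in the sources used here. Intensities had a 2%-trimmed mean of 150.001 on either array, as after a scaling to a common target, and were used unaltered. Names came from the platform annotation, updated by gene identifier to RefSeq: 34945 probe sets had 1 gene, 932 several genes (left out) and 9160 were unnamed here. Values under background were set to it before taking log2. Where a gene had several measured probe sets, the brightest by mean log2 stood for it, other than the class with suffix _x_ where possible. The pathway lists, members and rules were chosen with earlier results of these data known. All members were named; of lists over 12 genes, the 4 with the largest absolute ratio, and all measured genes of shorter lists. The number of arrays limits the precision. A planned comparison of protein sequences was not made, as no protein table was used here. Code ran in Python 3.11.15 with numpy 2.4.6 and pandas 2.3.3, and the steps were tested on simulated arrays.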

Additional observations from a re-analysis of the deposited data

How the results depend on the processing

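No paired analysis was possible because each line has 1 array. Of 11 alternatives, the thresholds of 4-fold and 8-fold each left 2 members higher in MS-1, in place of 4, and 0 in SVEC4-10, in place of 2. The count in SVEC4-10 was 1 with scaling to the poly-A controls, with the mean over probe sets and with the probe set of smallest ratio, because Spry2 then fell under 2-fold. The median log2 ratio of the members ranged from -1.11 to -0.23. No member called at 2-fold changed sign. All genes at least 2-fold apart numbered 1925 in SVEC4-10 and 1520 in MS-1, against 1062 and 3342 with scaling to the poly-A controls, 727 and 541 at 4-fold and 357 and 288 at 8-fold. Of 456 values for the other lists and all genes, 59 moved beyond the error or by over 1.5 times in count. Background limited Dusp2 in SVEC4-10, the second probe set of Spry2 and 2 of the 4 measured probe sets of Spred2, and 5 of the 25 member probe sets were below it on both arrays. Signals of the 21 poly-A control probe sets were 1.46-fold greater in SVEC4-10, while hybridisation controls (18 probe sets) had a ratio of 0.950; the cause was not tested.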

Other observations

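The atypical dual-specificity phosphatases, small enzymes that lack the kinase-binding domain of the family above, showed no common direction. Of 9 measured genes of 10 listed, 2 were at least 2-fold higher in SVEC4-10, 2 in MS-1 and 5 on neither (2, 4 and 3 with scaling to the poly-A controls), with a median log2 ratio of 0.058 that was -0.48 under that scaling. Dusp23 had a signal of 119 in MS-1 and was below background on the other, a difference of at least 6.75-fold. Dusp3 had signals of 1204 and 441, and its 3 probe sets ranged from -1.53 to -1.20. Dusp22 and Dusp28 were higher in SVEC4-10, with log2 ratios of 1.90 and 1.92 from 1 probe set each. Dusp11 (-0.91), Dusp19 (-0.53), Dusp14 (0.058), Dusp18 (0.26) and Dusp12 (0.27) were within 2-fold.

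Proteins that bind, modify or degrade Sprouty differed little between the arrays. Of 12 measured genes, 1 was at least 2-fold higher in SVEC4-10, 1 in MS-1 and 10 on neither (0, 5 and 7 with scaling to the poly-A controls). Cav1, which encodes caveolin, a membrane scaffold protein, had signals of 7594 and 1619, a log2 ratio of -2.23. Ndfip1, an adaptor of Nedd4 family ubiquitin ligases, had signals of 757 and 2168, a log2 ratio of 1.52. The ubiquitin ligase genes Cbl, Cblb, Siah2 and Nedd4 had log2 ratios of -0.84, -0.60, -0.60 and -0.29. A further probe set of Cblb had -1.56, past 2-fold, so its size depends on the probe set. The kinase genes Mknk1, Mknk2, Dyrk1a and Tesk1 had -0.31, 0.36, -0.48 and -0.17, and the phosphatase subunit genes Ppp2ca and Ppp2r1a had -0.27 and -0.20. Further probe sets of Siah2, Nedd4, Mknk2, Ppp2ca and Ppp2r1a had ratios of the other sign.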
